A study of Mus musculus with 4 samples.

Results

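Processed pseudogenes are intronless copies of messenger RNAs that were reverse transcribed and inserted back into the genome. In mouse hearts at postnatal day 14, 151 such loci were well covered by reads, and their counts were compared between Carm1 mutant and wild-type hearts. Members were all rows of the count table whose GENCODE M21 biotype is processed pseudogene and whose counts summed to at least 500 over the 4 libraries. They are 151 of 9652 processed pseudogene rows, of which 3143 had any count, and of 54752 rows in all. The summed count chose them, so it is given only as a description, and it ran from 501 for Gm15361 to 18050 for Gm10039. Just inside the limit lay Gm12254 with 509, Gm8330 with 506 and Gm15361 with 501 counts, and just outside it Gm15163 with 498, Gm9616 with 497 and Rpl19-ps11 with 496. For 25 members the sum would have stayed under 500 had all libraries been at the mean of the lower group, so those loci are present because 1 group was high.

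The series holds 4 RNA-seq libraries of mouse heart, 2 with the genotype wild type and 2 with the genotype Carm1 mutant, all labelled P14 although the design text calls the samples neonatal. Carm1 encodes an arginine methyltransferase that acts on histone H3 and on coactivators of transcription. Neither labels nor design text state the allele, how the mutation was made, the strain, the sex or whether each library is its own animal, so p-values reflect only how far these libraries vary. Total counts for wild type 1 and 2 were 21719161 and 20778420, and for mutant 1 and 2 they were 22217442 and 11677604; values below keep this order of libraries.

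A processed pseudogene keeps the exon sequence of the gene it was copied from, the parent, but lands without its promoter and introns. Genes that are strongly transcribed in the germline, such as those for ribosomal proteins, glycolytic enzymes and subunits of the respiratory chain, have left many copies, and most copies carry mutations that end the reading frame. Because a young copy is almost identical to its parent, a short read from one can match the other.

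Each member was matched to the protein-coding transcripts of the same annotation, and all 151 had a best match that met both minimums, an identity of 90% and a covered length of 50% of the copy. Identity ranged from 90.3% to 100% with a median of 99.3%. Of the 151 members, 24 were identical to the parent over the aligned length, 86 were at 99% or above and 143 at 95% or above. The pairs below are shown because their copies or parents carry the comparison that follows. In each, 120 bases of the copy stand above the matching stretch of the coding sequence of the parent, 5′ to 3′ on the sense strand, with capitals at the bases that differ. Sequences and coordinates are those of GENCODE M21 on GRCm38.

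BC002163: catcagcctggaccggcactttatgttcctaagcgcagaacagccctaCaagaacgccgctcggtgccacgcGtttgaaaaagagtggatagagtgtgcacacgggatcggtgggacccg
Ndufs5: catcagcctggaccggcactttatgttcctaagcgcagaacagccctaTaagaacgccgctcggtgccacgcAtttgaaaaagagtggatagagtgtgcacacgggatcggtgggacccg
Gm8355: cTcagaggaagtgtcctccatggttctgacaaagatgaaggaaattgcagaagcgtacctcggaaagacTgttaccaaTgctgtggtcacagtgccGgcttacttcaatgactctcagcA
Hspa8: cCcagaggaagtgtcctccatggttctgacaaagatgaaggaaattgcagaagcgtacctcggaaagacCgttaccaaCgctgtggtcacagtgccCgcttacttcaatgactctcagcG
Gm10020: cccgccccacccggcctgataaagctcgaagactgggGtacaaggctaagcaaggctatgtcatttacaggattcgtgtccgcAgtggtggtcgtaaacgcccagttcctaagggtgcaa
Rpl15: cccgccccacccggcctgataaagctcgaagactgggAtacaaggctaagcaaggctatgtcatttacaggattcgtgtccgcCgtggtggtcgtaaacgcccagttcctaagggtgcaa
Gm15920: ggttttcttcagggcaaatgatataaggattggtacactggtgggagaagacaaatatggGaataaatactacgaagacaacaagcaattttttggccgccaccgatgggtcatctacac
Ndufa12: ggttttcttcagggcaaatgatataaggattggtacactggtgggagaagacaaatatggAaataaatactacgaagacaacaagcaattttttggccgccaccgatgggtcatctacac
Gm13910: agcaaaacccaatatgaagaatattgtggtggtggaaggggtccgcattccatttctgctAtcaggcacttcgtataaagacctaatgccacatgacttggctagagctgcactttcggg
Hadhb: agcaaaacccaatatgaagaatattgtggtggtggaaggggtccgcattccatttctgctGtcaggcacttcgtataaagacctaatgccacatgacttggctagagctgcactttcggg

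The copies shown lie at chr16:42955663-42955782 on the plus strand for BC002163, chr10:14746839-14746958 on the minus strand for Gm8355, chr15:52477991-52478110 on the minus strand for Gm10020, chr5:130188433-130188552 on the plus strand for Gm15920 and chr2:108948946-108949065 on the plus strand for Gm13910. Positions are counted from 1 at the A of the parent's start codon, with the base of the parent first. The Ndufs5 window holds T81C and A105G, the only differences over 318 aligned coding bases. Hspa8 and Gm8355 differ by C346T, C414T, C423T, C441G and G464A here and at 25 of 1938 aligned coding bases. Rpl15 and Gm10020 differ by A156G and C202A, which are the only differences over 612 bases. Ndufa12 and Gm15920 differ by A135G in the window and at 2 of 399 bases, and Hadhb and Gm13910 by G201A and at 3 of 1425. Long stretches without any difference lie between these bases. Over all members, a median of 74.0% of the 50-base words of a copy also occurred in a protein-coding transcript, and in 29 members every such word occurred in another annotated gene.

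The labels and processing notes do not say how reads with several matches were counted or whether strand was kept, so the counts of a copy and its parent may each hold reads of the other. If each read was counted once within a pair, the sum of copy and parent does not depend on how reads were divided between them. Reads that were dropped, counted at each match or given to further matching loci would change the sum. The sum is given for most of the pairs described. Summed over 4 Y-linked genes (Uty, Ddx3y, Eif2s3y, Kdm5d) the counts were 1769 and 2236 against 7 and 0, and Xist had 12 and 15 against 8116 and 3921. Genotype and sex therefore cannot be told apart here; 8 members lie on the X chromosome, and the 24 called members below are all autosomal. Carm1 itself was not called, with a log2 fold change of −0.54 (edgeR quasi-likelihood FDR 0.114), and a count over the whole gene does not test for a partial deletion. The wild-type libraries differed more from each other than the mutant libraries did, with a chi-square per degree of freedom of 51.1 against 11.5.

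The members together held 0.457% and 0.342% of the counts of the wild-type libraries and 0.456% and 0.535% of those of the mutant. Wild type 1 lay just above mutant 1, so the groups overlapped. Group means were 0.399% ± 0.081 (SD, n = 2) and 0.496% ± 0.056 (SD, n = 2), and with 2 against 2 an exact permutation test cannot go below p = 0.333. The parents held 4.33% and 3.55% in wild type against 3.24% and 3.62% in the mutant.

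Of the 151 members 24 were called at an FDR (Benjamini-Hochberg adjusted p of the edgeR quasi-likelihood test) under 0.05, 13 higher and 11 lower in the mutant hearts. That is 15.9% of members, and among all 15283 genes tested 7.37% were called, 2.79% higher and 4.58% lower. Because 9 of the 13 higher members and 5 of the 11 lower ones were among those present through 1 group, the share of members is a description of the rule and not a result about copies. The 9 were BC002163, Gm10020, Gm6123, Gm1840, Gm3375, Atp6v0c-ps2, Gm9825, Gm10704 and Gm9770. The 5 were Gm12447, Gm17669, Gm14117, Akt2-ps and Rab11b-ps2. Among the 686 other processed pseudogenes that were tested, 17 were higher and 12 lower, 4.23% in all. The median log2 fold change of the members was −0.21, against 0.02 over all genes tested. Wild-type and mutant libraries did not overlap in 62 members, 41.1%, against 59.0% of all genes tested. Scaling by library totals alone gave a median of 0.41 over all genes and 0.20 over the members, and split the calls into 18 higher and 7 lower. The number of calls fell without either mutant library and rose without either wild-type library. The members' median was 0.14 without wild type 1 and −0.52 without wild type 2. It was −0.14 without mutant 1 and −0.32 without mutant 2.

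**Figure D1:**
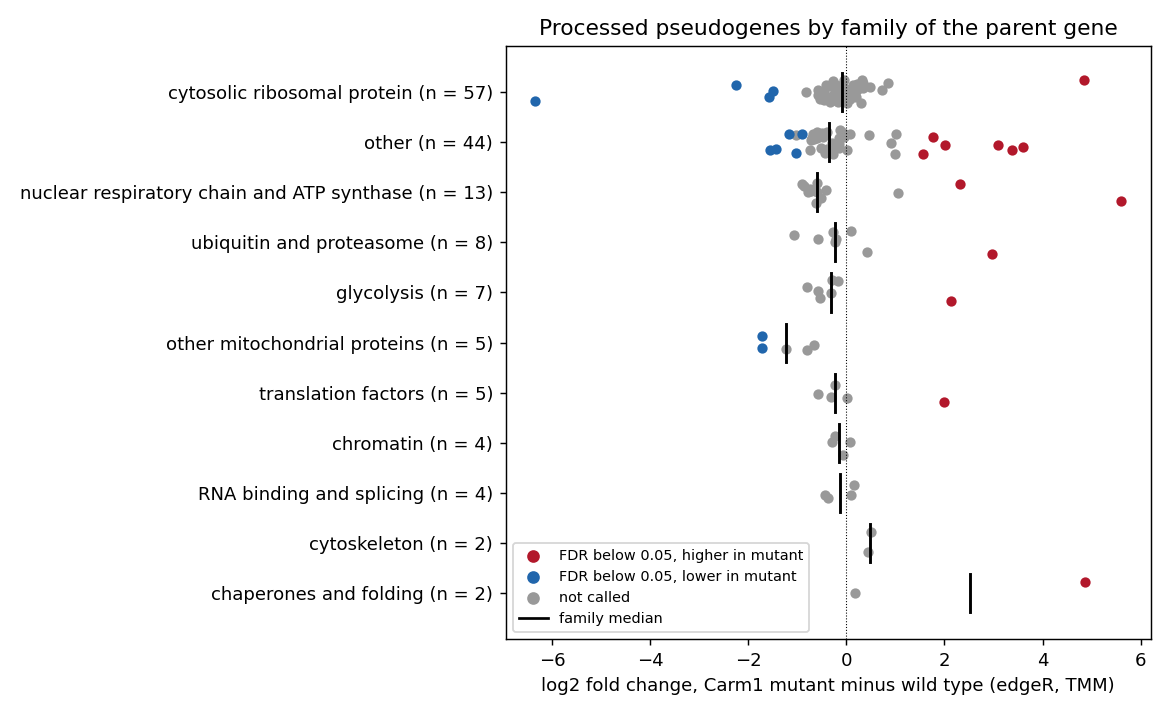
Fitted log2 fold change (mutant minus wild type, x axis) of each of the 151 members, one point per member, by the family of the parent gene (y axis); black bars are family medians and colours mark members called at an edgeR FDR under 0.05. Most members lie between −1 and 1, the 13 called higher reach 5.61 and the 11 called lower reach −6.36.

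Grouped by parent, copies of cytosolic ribosomal protein genes were the largest family with 57 members, followed by 13 copies of nuclear genes for the respiratory chain and ATP synthase, 8 of ubiquitin and proteasome genes, 7 of glycolytic enzymes, 5 of translation factors and 5 of other mitochondrial proteins. RNA binding and splicing and chromatin had 4 members each, the cytoskeleton and chaperones 2 each, and 44 had parents outside these families. No member was a copy of a gene of the mitochondrial chromosome or of the iron storage genes Fth1 and Ftl1. The families were set by gene symbol, which leaves some genes whose products work in mitochondria in the mixed group, such as Atpaf1, Pdhb, Usmg5, Mpc1 and Immp1l.

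The ribosomal copies came from 40 genes, and most were not called. Of the 57 copies 1 rose and 4 fell, which is 8.77% called, near the 7.37% of all genes tested. Among the called copies Gm10020, Gm12447 and Gm17669 were present through 1 group, so this share partly follows from the rule. The 52 that were not called had log2 fold changes between −0.82 and 0.84. The median of the 57 was −0.09, close to the median of −0.12 over the 82 tested protein-coding genes of the cytosolic ribosome. Of those genes 1 (1.22%) was called, Rpl29. The family median was 0.34 with library totals. It also moved with the wild-type libraries, to 0.32 without wild type replicate 1 and to −0.47 without wild type replicate 2. It was −0.24 without mutant replicate 2 and 0.022 without mutant replicate 1. The most abundant ribosomal copy by mean CPM was Gm11478, a copy of the large-subunit gene Rpl13a in an intron of Vmp1, with 117 and 70.5 CPM (counts scaled to a common library size with TMM factors) in wild type against 74.3 and 103 in the mutant. Those groups overlap and its log2 fold change was −0.08 (SE 0.29).

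Gm10020, the copy of the large-subunit gene Rpl15 shown above, was the ribosomal member that rose. It had 25 and 7 counts in wild type against 598 and 366 in the mutant, or 1.43 and 0.358 CPM against 23.8 and 26.9 CPM. Both wild-type libraries were far below both mutant libraries. Its log2 fold change was 4.85 (SE 0.45, edgeR FDR 0.0038). Rpl15 had 1141 and 703 counts in wild type against 535 and 339 in the mutant, a log2 fold change of −1.13 that was not called (edgeR FDR 0.055). Copy and parent added together gave 66.9 and 36.2 CPM against 45.1 and 51.9 CPM, so the groups overlapped, with a log2 fold change of −0.09 (95% interval −0.75 to 0.57).

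Of the members, 4 were copies of Rpl29, another large-subunit gene, and their counts did not follow one pattern. Rpl29 itself had 1687 and 855 counts in wild type against 140 and 85 in the mutant, a log2 fold change of −3.57 (edgeR FDR 0.0064). Gm12447, on chromosome 4 in an intron of Gm12446 and 94.3% identical, had 339 and 220 counts against 5 and 2, and Gm17669, 98.0% identical, had 707 and 416 against 135 and 104. Both copies were low in both mutant libraries and both fell, with log2 fold changes of −6.36 (SE 0.46, edgeR FDR 0.0014) and −2.26 (SE 0.34, edgeR FDR 0.015). Gm7252, on chromosome 12 in an intron of Ispd and 93.0% identical, went the other way with 676 and 434 counts in wild type against 1320 and 768 in the mutant, though it was not called (log2 fold change 0.84, edgeR FDR 0.093). Gm13841, 99.4% identical, had 151 and 96 against 241 and 125 and was not called either. Summed over Rpl29 and its 4 copies, the levels were 204 and 103 CPM in wild type against 73.3 and 79.8 CPM in the mutant. The mutant libraries were still both lower, with a log2 fold change of −1.005 that missed the threshold (edgeR FDR 0.086). Gm7252 made up 28.6% and 33.7% of the counts of Gm7252 plus Rpl29 in wild type against 90.4% and 90.04% in the mutant.

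Rpl28-ps1 and Gm9493 were the other ribosomal members that fell. Rpl28-ps1 is identical to Rpl28 over its whole length, so reads within it cannot be assigned by sequence. It had 2593 and 2149 counts in wild type against 1445 and 380 in the mutant, with a log2 fold change of −1.59 (SE 0.34, edgeR FDR 0.035), which was not called with library totals or without mutant replicate 2. Rpl28 had 3665 and 1955 counts against 4896 and 4026 and was not called, and the sum of both rows had a log2 fold change of 0.02 (95% interval −0.65 to 0.70). Gm9493, a copy of the small-subunit gene Rps7, had 566 and 383 counts against 205 and 138 (log2 fold change −1.51, edgeR FDR 0.024). Rps7 had 7086 and 4427 against 5034 and 3035 and was not called, and neither was the sum (log2 fold change −0.63, edgeR FDR 0.21).

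Rps2, a small-subunit gene, had 5 copies among the members (Rps2-ps6, Gm5786, Gm45855, Gm11249 and Gm7432), with log2 fold changes from −0.82 to 0.01 and edgeR FDR values of 0.18 or more. Rps2 itself had 9263 and 3986 counts in wild type against 2934 and 599 in the mutant, with a log2 fold change of −2.18 that missed the threshold (edgeR FDR 0.052). The copies took a larger part of copy plus parent in mutant replicate 2, where Rps2 was lowest: Rps2-ps6 made up 8.41% and 10.3% of copy plus parent in wild type against 16.1% and 40.8% in the mutant. Rps2 and its 5 copies together had 648 and 259 CPM against 171 and 114 CPM, with a log2 fold change of −1.67 that missed the threshold (95% interval −2.64 to −0.70, edgeR FDR 0.052).

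Copies of nuclear genes for the respiratory chain and ATP synthase were divided. Of 13 members 2 (15.4%) were called by edgeR, both higher (BC002163 and Gm6969), against 2.79% of all genes tested. BC002163 was among the members present through 1 group, so this share partly follows from the rule. Gm15920 lay just outside the threshold, and the other 10 had log2 fold changes between −0.91 and −0.42. At an unadjusted p under 0.05 in the edgeR test 3 were higher and 7 lower, where 13.1% of all genes tested were higher and 14.7% lower. The DESeq2 Wald test called 3 higher and 2 lower (Gm10039 and Gm9711), where it called 3.68% of all genes higher and 7.95% lower. The median was −0.59. It was −0.23 without wild type replicate 1 and −0.98 without wild type replicate 2. Their 12 parents had a median of −0.86 with 3 called, all lower, and the 106 tested protein-coding genes of these complexes had a median of −0.66 with 13 called, all lower. With library totals the median of the copies was −0.18, below the median of 0.41 over all genes. The 3 parents called lower, Ndufs5, Ndufa12 and Cox7a2l, were the parents of the 3 copies with positive log2 fold changes.

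BC002163 had the largest increase of any member. It is a copy of Ndufs5, an accessory subunit of complex I, lies on chromosome 16 (42955631 to 42955949, plus strand) in an intron of Zbtb20 on the same strand, and is 99.4% identical to its parent. It had 44 and 30 counts in wild type against 2267 and 1441 in the mutant, or 2.52 and 1.53 CPM against 90.4 and 106 CPM. The mutant libraries were both far above the wild-type ones, with a log2 fold change of 5.61 (SE 0.29, edgeR FDR 0.00026). Ndufs5 moved in the opposite direction, from 3081 and 2158 counts to 687 and 413, a log2 fold change of −2.31 (edgeR FDR 0.0077). Per kilobase, BC002163 went from a mean of 6.35 to 308 CPM and Ndufs5 from 273 to 55.1 CPM. Copy and parent together had 179 and 112 CPM in wild type against 118 and 136 CPM in the mutant, so the groups overlapped and the log2 fold change of the sum was −0.19 (95% interval −0.79 to 0.40). The copy made up 1.41% and 1.37% of the counts of the pair in wild type against 76.7% and 77.7% in the mutant.

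Gm15920 and Gm6969 showed the same opposition between copy and parent. Gm15920 is a copy of Ndufa12, also an accessory subunit of complex I, on chromosome 5 (130188395 to 130188796, plus strand) in an intron of Rabgef1 on the same strand. It had 1900 and 1311 counts in wild type against 4256 and 2669 in the mutant, and Ndufa12 had 3241 and 2318 against 720 and 571. Groups did not overlap in either row. The copy had a log2 fold change of 1.06 (SE 0.26, edgeR FDR 0.052), just short of a call, and Ndufa12 fell with −2.11 (edgeR FDR 0.012). Gm15920 was called by the DESeq2 Wald test (FDR 0.0033), and by edgeR with no filter, with library totals, without wild type replicate 1 and without wild type replicate 2 (FDR 0.00047 to 0.022). It was not called by edgeR with DESeq2 size factors, without mutant replicate 1 or without mutant replicate 2 (FDR 0.060 to 0.28). Their sum overlapped between groups, at 295 and 185 CPM against 198 and 239 CPM, with a log2 fold change of −0.14 (95% interval −0.75 to 0.48). Gm6969, a copy of the supercomplex factor Cox7a2l on chromosome 12 (24638669 to 24639010, minus strand), had 256 and 218 counts against 1534 and 904. Its log2 fold change was 2.31 (SE 0.21, edgeR FDR 0.0038), while Cox7a2l fell from 5253 and 3807 counts to 2730 and 1727 (log2 fold change −1.07, edgeR FDR 0.047). The sum of Gm6969 and Cox7a2l was not called, with a log2 fold change of −0.52 (edgeR FDR 0.23).

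The remaining copies of this kind were not called by edgeR. Gm10039 is the most abundant member of all and a copy of Atp5g1, which encodes the c subunit of ATP synthase. It had 372 and 233 CPM in wild type against 174 and 192 CPM in the mutant, which do not overlap, and a log2 fold change of −0.72 (95% interval −1.33 to −0.12, edgeR FDR 0.12). It was called lower by the DESeq2 Wald test (FDR 0.041), and by edgeR with no filter (FDR 0.037) and without wild type replicate 2 (FDR 0.00032). Atp5g1 had 1513 and 925 CPM against 783 and 833 CPM, a log2 fold change of −0.59. Gm10250, a copy of the ATP synthase stalk gene Atp5h, had 177 and 107 CPM against 91.0 and 93.4 CPM (log2 fold change −0.62, edgeR FDR 0.17), beside −0.72 for Atp5h.

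The 5 copies of genes for other mitochondrial proteins all had negative log2 fold changes, with a median of −1.23. Of these 2 (40.0%) fell, Gm13910 among them, where 4.58% of all genes tested were called lower. The median was −0.58 without wild type replicate 1 and −1.88 without wild type replicate 2. It was −0.82 without mutant replicate 1 and −1.74 without mutant replicate 2. Gm13910 is a copy of Hadhb, the β subunit of the trifunctional protein of fatty acid oxidation, on chromosome 2 (108948806 to 108950233, plus strand), and 99.8% identical. It had 4053 and 3794 counts in wild type against 1606 and 887 in the mutant, or 232 and 194 CPM against 64.05 and 65.3 CPM. Both mutant libraries were at about the same lower level, with a log2 fold change of −1.72 (SE 0.20, edgeR FDR 0.0084). Hadhb fell with it, from 15712 and 15200 counts to 8794 and 4971 (log2 fold change −1.22, edgeR FDR 0.023), and their sum fell as well (log2 fold change −1.31, edgeR FDR 0.021). The part of Gm13910 in the pair was 20.5% and 20.0% in wild type against 15.4% and 15.1% in the mutant.

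Hspd1-ps3, Gm6419 and Gm12350, copies of Hspd1, Mrpl42 and Chchd2, were not called (edgeR FDR 0.13 to 0.21). The parent Hspd1, a chaperonin of the mitochondrial matrix, fell with a log2 fold change of −1.32 (edgeR FDR 0.019). In a whole organ, fewer cells of a type and less RNA per cell cannot be told apart. The 8 markers of ventricular muscle summed to 84821 and 70909 CPM in wild type against 42034 and 45469 CPM in the mutant, with 1 called, lower, and none at 0. The 4 atrial muscle markers summed to 541 and 429 against 325 and 350 CPM, with 1 called higher and 2 lower. The 4 fibroblast markers summed to 1898 and 2196 against 3292 and 3501 CPM and the 4 endothelial markers to 794 and 1074 against 1416 and 1208 CPM, with none called in either list. The part of these cell types in the levels of the mitochondrial copies was not tested.

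**Figure D2:**
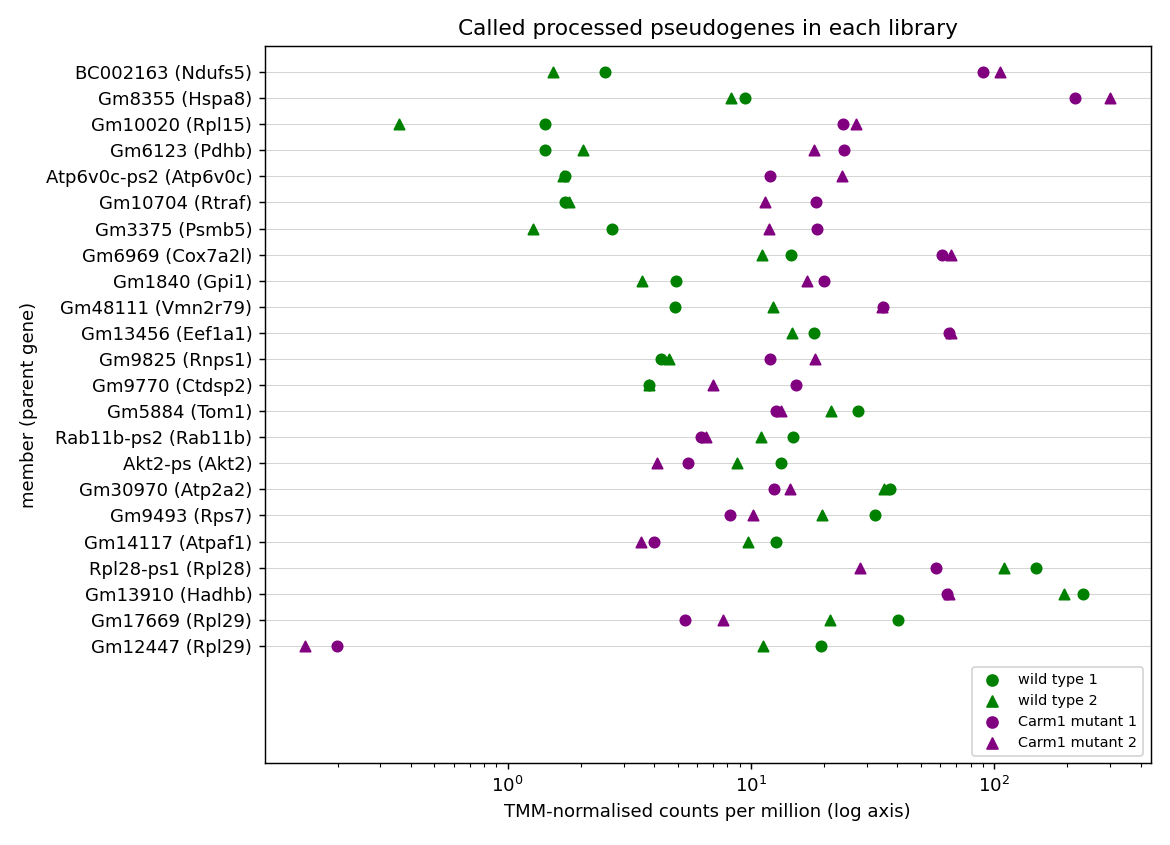
TMM-normalised CPM (x axis, log scale) of all but 1 of the 24 called members in each of the 4 libraries, with the parent gene in brackets (y axis); circles are replicate 1 and triangles replicate 2, green wild type and purple Carm1 mutant. For BC002163 the wild-type libraries are at 2.52 and 1.53 and the mutant libraries at 90.4 and 106, and Gm12447 at the bottom shows the reverse order.

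Outside the ribosome and the mitochondrion, Gm8355 had the largest log2 fold change. This copy of Hspa8, the constitutive cytosolic Hsp70 chaperone, lies on chromosome 10 (14745362 to 14747302, minus strand) in an intron of Nmbr on the opposite strand. It had 165 and 163 counts in wild type against 5398 and 4077 in the mutant, or 9.44 and 8.32 CPM against 215 and 300.2 CPM. The wild-type libraries were nearly equal and both mutant libraries were far higher, with a log2 fold change of 4.86 (SE 0.27, edgeR FDR 0.00033). Hspa8 had 29605 and 23173 counts against 18631 and 11865, a log2 fold change of −0.83 that was not called (edgeR FDR 0.092). Per kilobase Gm8355 stood at 133 CPM in the mutant beside 338 CPM for Hspa8, and at 4.58 beside 601 CPM in wild type. The sum was not called (log2 fold change −0.44, 95% interval −1.07 to 0.18).

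Gm13456, a copy of the elongation factor gene Eef1a1 at 96.8% identity, rose from 319 and 288 counts to 1636 and 899. In CPM this was 18.2 and 14.7 against 65.2 and 66.2, with a log2 fold change of 1.996 (SE 0.20, edgeR FDR 0.0053). Here the parent was not called: Eef1a1 had 2685 and 1715 CPM in wild type against 2289 and 2562 CPM in the mutant, overlapping, with a log2 fold change of 0.14. The copy was 0.675% to 0.850% of the pair in wild type against 2.77% and 2.52% in the mutant. Gm1840, which matches the glycolytic enzyme gene Gpi1 over 73.0% of its length, rose from 86 and 70 counts to 499 and 231 (log2 fold change 2.12, edgeR FDR 0.0077), beside −0.35 for Gpi1. Gm3375, a copy of the proteasome gene Psmb5, rose from 47 and 25 to 469 and 162 (log2 fold change 2.97, edgeR FDR 0.0099), beside −0.96 for Psmb5, which was not called. The sums of copy and parent were not called for any of these 3, with log2 fold changes of 0.17 for Eef1a1, −0.32 for Gpi1 and −0.49 for Psmb5 (edgeR FDR 0.27 to 0.75).

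Among the 44 copies with parents of mixed function 6 rose, where 2.79% of all genes tested were called higher. Gm6123, Atp6v0c-ps2, Gm9825, Gm10704 and Gm9770 were among the members present through 1 group, so this count partly follows from the rule. Gm6123 is a copy of Pdhb, a subunit of pyruvate dehydrogenase, at 97.03% identity, and had 25 and 40 counts in wild type against 605 and 246 in the mutant (log2 fold change 3.60, edgeR FDR 0.0020). Pdhb fell from 13350 and 11400 counts to 6966 and 3863 (log2 fold change −1.26, edgeR FDR 0.024), and the copy was 7.99% and 5.99% of the pair in the mutant. Their sum fell too (log2 fold change −1.16, edgeR FDR 0.029). Atp6v0c-ps2, a copy of the proton-pump gene Atp6v0c, had 30 and 33 counts against 301 and 323, and the mutant libraries were both far above wild type. It rose with a log2 fold change of 3.38 (SE 0.38, edgeR FDR 0.0073), Atp6v0c fell with −1.03 (edgeR FDR 0.042), and the sum had −0.27 (edgeR FDR 0.40). Gm9825, a copy of the splicing factor gene Rnps1, had 75 and 90 counts against 302 and 250. It rose with a log2 fold change of 1.77 while Rnps1 fell with −1.12 (edgeR FDR 0.016 and 0.047), and their sum had −0.76, which was not called (edgeR FDR 0.067).

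Gm10704, a copy of Rtraf, had 30 and 35 counts against 463 and 155 and a log2 fold change of 3.10 (edgeR FDR 0.0053). It overlaps an exon of Ssr2 on the opposite strand, and without strand its reads and those of Ssr2 cannot be told apart. Gm9770, a copy of the phosphatase gene Ctdsp2, had 67 and 75 counts against 384 and 95, a log2 fold change of 1.56 (edgeR FDR 0.045) that was lost without mutant replicate 1 (0.86). The sums with the parent were not called, at −0.38 for Rtraf and 0.22 for Ctdsp2 (edgeR FDR 0.39 and 0.50). Gm48111 on chromosome 13 matched Vmn2r79, a gene of the vomeronasal receptor family, at only 90.3% identity, and that gene had no count in any library, so its parent is uncertain. Its own counts were 85 and 241 in wild type against 877 and 470 in the mutant, with a log2 fold change of 2.01 (edgeR FDR 0.024).

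In the mixed group 5 of the 44 copies fell, where 4.58% of all genes tested were called lower. Gm14117, Akt2-ps and Rab11b-ps2 were among the members present through 1 group, so this count also partly follows from the rule. Of the 5 lower members, 3 had a parent that fell as well. Gm30970, a copy of Atp2a2, which pumps calcium into the sarcoplasmic reticulum, had 651 and 693 counts against 312 and 197 (log2 fold change −1.43, edgeR FDR 0.011). Atp2a2 fell by nearly the same amount, with a log2 fold change of −1.48 (edgeR FDR 0.020), and the copy was 0.537% to 0.636% of the pair in every library. Gm14117, identical to the ATP synthase assembly factor gene Atpaf1, had 221 and 191 counts against 100 and 48, with a log2 fold change of −1.56 (edgeR FDR 0.018) beside −1.30 for Atpaf1 (edgeR FDR 0.016). Gm5884, identical to the endosomal adaptor gene Tom1, had 482 and 417 counts against 317 and 181. Its log2 fold change was −0.91 (edgeR FDR 0.040) beside −0.88 for Tom1 (edgeR FDR 0.034). Akt2-ps, a copy of an insulin signalling kinase gene, had 232 and 171 counts against 138 and 56, and Rab11b-ps2, a copy of a recycling endosome GTPase gene, 260 and 216 against 156 and 89. In Gm14117, Gm5884, Akt2-ps and Rab11b-ps2 both mutant libraries were below both wild-type libraries in CPM. Akt2-ps and Rab11b-ps2 fell with log2 fold changes of −1.17 and −1.02 (edgeR FDR 0.049 and 0.042), and Akt2 and Rab11b were not called. The calls for Akt2-ps, Rab11b-ps2 and Gm5884 were lost with library totals, without mutant replicate 1 and without mutant replicate 2, that for Akt2-ps also with DESeq2 size factors, and that for Gm30970 without mutant replicate 1. Without mutant replicate 1 and without mutant replicate 2 the log2 fold changes were −0.88 and −0.96 for Gm5884, −0.98 and −1.06 for Rab11b-ps2 and −1.42 and −1.004 for Akt2-ps, and that of Gm30970 was −1.33 without mutant replicate 1.

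Several of the most abundant members were not called. Gm12328 had 261 and 185 CPM in wild type against 248 and 229 CPM in the mutant, overlapping, with a log2 fold change of 0.09 (SE 0.23). It is one of 3 copies of the ubiquitin gene Ubb, and it held 97.8% to 99.7% of the counts of copy plus parent in all libraries. Tpt1-ps3, identical to the growth regulator gene Tpt1, had 321 and 175 CPM against 165 and 194 CPM and a log2 fold change of −0.47 (SE 0.30), beside −0.41 for Tpt1. Gapdh, a glycolytic enzyme gene often used as a reference, had 5 nearly identical copies among the members. Gm5559, the most abundant of them, had 163 and 128 CPM in wild type against 112 and 122 CPM in the mutant, while Gapdh had 42.2 and 35.5 CPM against 35.1 and 32.8 CPM. Gapdh and its 5 copies together had 355 and 275 CPM in wild type against 243 and 273 CPM in the mutant. The part of Gm5559 in the pair was 76.2% to 79.5% and overlapped between groups, and its log2 fold change of −0.31 (edgeR FDR 0.37) lay beside −0.19 for Gapdh. In all, 17 members held over 50% of the counts of copy plus parent in wild type. Reads of a pair may have been counted in either row, so these levels and shares do not show which locus was transcribed more.

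In the families of RNA binding, chromatin and cytoskeletal genes edgeR and DESeq2 called none, and 1 was at an unadjusted p under 0.05 by edgeR. Gm7964, a copy of the RNA-binding protein gene Hnrnpk, and H3f3c, annotated as a copy of the histone gene H3f3a, had log2 fold changes of −0.37 and −0.30. Both were positive with library totals, and so were all family medians except those of the respiratory chain (−0.18) and the other mitochondrial proteins (−0.77).

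**Figure D3:**
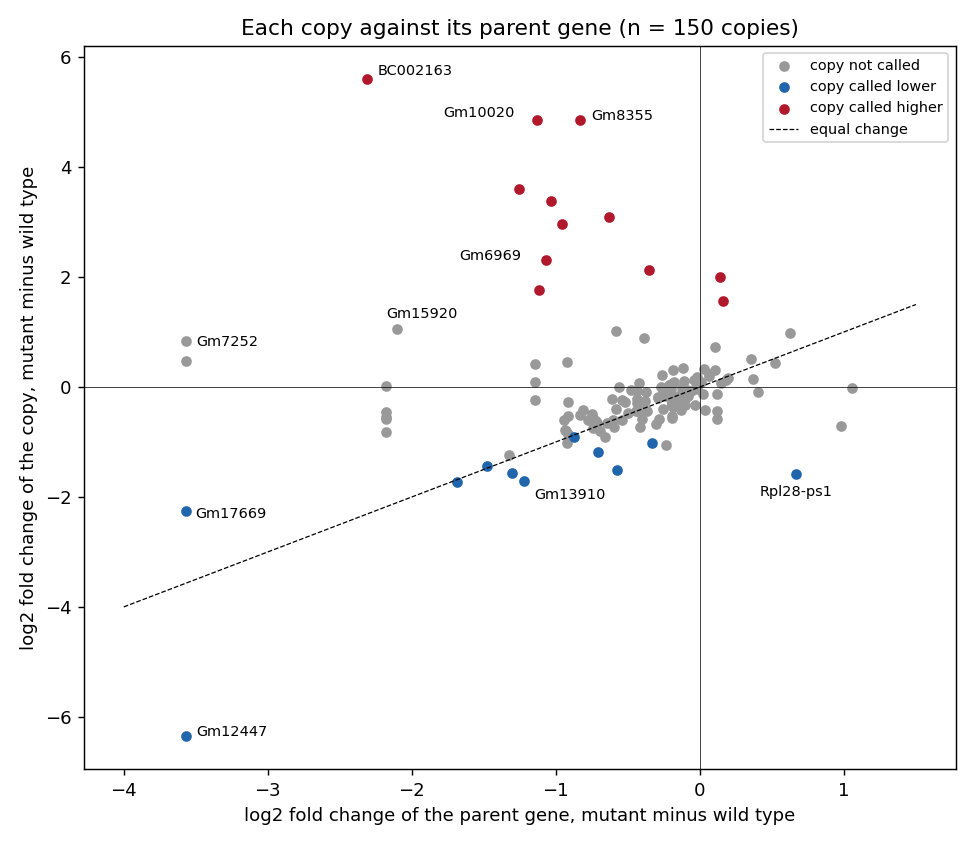
Log2 fold change of each copy (y axis) against that of its parent gene (x axis) for the 150 copies whose parent was tested; the dashed line marks equal change and colours mark copies called at an edgeR FDR under 0.05. Most grey points lie near the line, the 12 red points lie above the line, and the Rpl29 copies stand in a column at −3.57.

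The parents of the called members are given as a description, since the members were picked by the direction of the copy and 9 of the 13 higher and 5 of the 11 lower ones are present through 1 group. Of the 13 higher members the parent was called in the opposite direction for 5 (Ndufs5, Pdhb, Atp6v0c, Cox7a2l and Rnps1). For 10 of the 13 the parent had a negative log2 fold change. Over all members the parent's log2 fold change was negative for 125 of the 150 copies with a tested parent, so the 10 do not set the higher members apart. Of the 11 lower members the parent was called lower as well for 7. Across 150 copies with a tested parent, Spearman's rho between the log2 fold changes of copy and parent was 0.29, as a description, since copies and parents share libraries and possibly reads. Copy and parent differed by more than 1 on the log2 scale in 30 of the 150.

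The difference between copy and parent varied with identity. Its median size was 0.10 on the log2 scale in the 24 identical copies, 0.20 in the 62 from 99% to under 100%, 0.28 in the 42 from 97% to under 99% and 0.41 in those under 97%. Of the 24 identical copies 3 were called, all lower. In the other classes, in the same order, 5, 6 and 2 copies were called higher and 4, 2 and 2 lower. Of all genes tested 2.79% were called higher and 4.58% lower. By position, 95 members lay outside other annotated genes, 54 in introns (20 on the strand of the host gene, 34 on the opposite strand) and 2 overlapped an exon. Of the 13 higher members 10 lay outside other genes, and of the 11 lower members 4 did, with 6 in introns on the opposite strand.

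**Figure D4:**
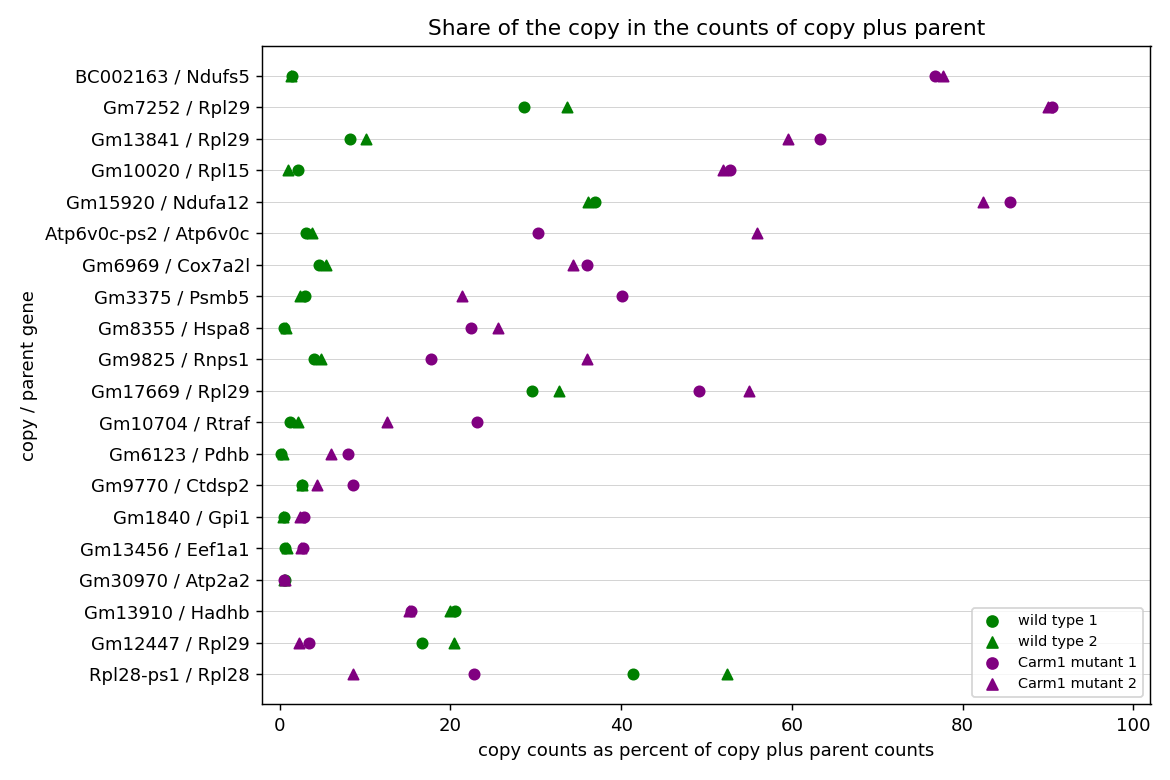
Counts of a copy as a percent of copy plus parent (x axis) in each library for the members called higher with a tested parent and for other pairs described in the text (y axis); circles are replicate 1 and triangles replicate 2, green wild type and purple Carm1 mutant. In BC002163 the share goes from 1.41% and 1.37% to 76.7% and 77.7%, in Gm12447 and Rpl28-ps1 it is lower in the mutant, and in Gm30970 the groups overlap.

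The share of the copy in the pair is given for the size of the shift, since its direction in called members largely follows from how they were picked. Over all members it was higher in both mutant libraries for 53, lower in both for 26 and overlapped in 72. Copies of the same parent share its counts, so these are not counts of independent loci. Genes without a copy have no such share, so no background over all genes can be set beside them, and no general shift is read from them. The largest shifts without a call in the copy were those of Gm7252 (28.6% and 33.7% to 90.4% and 90.04%), Gm13841 (8.22% and 10.1% to 63.3% and 59.5%) and Gm15920 (37.0% and 36.1% to 85.5% and 82.4%). Gm12447 went the other way, from 16.7% and 20.5% to 3.45% and 2.30%.

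When each parent was added to its copies, 124 rows replaced the 151 members, and 8 were called at an edgeR FDR under 0.05, 1 higher and 7 lower. Of all rows tested after this summing 7.49% were called, 2.84% higher and 4.65% lower, so the share of the summed rows, 6.45%, was near the background. Groups did not overlap in 53 summed rows, 42.7%, against 59.1% of all rows tested. The higher row was that of Gm48111, to which the parent added no count. Among the 7 lower rows were Pdhb, Hspd1, Atpaf1, Atp2a2, Tom1 and Hadhb, and these parents were also called on their own counts. Of the other 12 higher members, that of Gm6123 and Pdhb was the one with a called summed row, and it was lower. The parents alone gave 13 calls among 123 tested, all lower, which is 10.6%. Of all genes tested 4.58% were called lower. The median log2 fold change of the summed rows was −0.28 and that of the parents −0.35. The median of the summed rows was −0.21 without mutant replicate 1 and −0.38 without mutant replicate 2. It was 0.016 without wild type replicate 1 and −0.57 without wild type replicate 2. The count of 8 fell without either mutant library and rose without either wild-type library.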

How the data were processed

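BGI made the libraries from total RNA of heart, per the labels' protocols, and the submitters' processing notes name FastQC, HISAT2 and the mm10 build. They give no versions, counting program, gene annotation, strand setting or rule for reads with several matches. The values that the authors deposited are unnormalised read counts per gene. The table has 54752 rows, of which 29 had no name in GENCODE M21 and held at most 0.0011% of a library. Samples were matched by title and grouped by genotype label.

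Genes were kept with filterByExpr (15283, all 151 members among them), scaled by TMM and tested on the whole table with edgeR 4.0.16 in R 4.3.3 (glmQLFit and glmQLFTest, genotype as the only term, 2 residual degrees of freedom), with Benjamini-Hochberg adjustment over all genes (FDR) and a threshold of 0.05. CPM values use TMM factors (0.806 and 0.943 for wild type, 1.13 and 1.16 for the mutant). Genes of the mitochondrial chromosome made up 27.8% to 33.1% of a library. The biological coefficient of variation was 0.186. Parents were the best matches of BLAST+ 2.17.0 among GENCODE M21 protein-coding transcripts on the plus strand, and 29 members also matched another coding gene. Shared words of 50 bases were counted on either strand. For the summed table each parent and its copies were added into 1 row and the whole table refitted. The steps were tested on simulated data. One called member and its parent entered every fit and count and are not reported here by name or value.

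Members and gene lists were chosen with earlier results of these data known. Named are the 10 most abundant members, up to 8 called members in each direction by size of change, the most abundant and the most clearly called member of each family of at least 3, the loci next to the limit of 500 counts, BC002163, and their parents; the copies of Rpl29, Rps2, Gapdh and Ubb, Gm9711 and the remaining called members were named after their values were seen. Alternatives were DESeq2 size factors, library totals, no filter, the Wald test of DESeq2 1.42.0, an FDR of 0.10, a replicate block, leaving out each library, limits of 250 and 1000 counts and an identity of 95%. A crossed block was added after the data were seen, as was leaving out the mitochondrial chromosome for the named members.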

Additional observations from a re-analysis of the deposited data

How the results depend on the processing

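Of the 24 called members 18 kept their call and direction under all 11 refits, among them every higher member except Gm9770, and none changed sign. Against 24 called members and 8 called sums of copy and parent, no filter gave 42 and 28 calls, and leaving out 1 library gave 19 to 92 and 2 to 91. A limit of 1000 summed counts left 12 called members. For the sums, the DESeq2 Wald test gave 22 and an FDR of 0.10 gave 19. Library totals gave 25 members (18 higher, 7 lower) and 10 sums. The replicate block gave 29 and 9, with Gm15920 among the called members (FDR 0.029), and as same-numbered libraries deviated in opposite directions (correlation −0.25 over 15283 genes), nothing shows that the numbers pair them; crossing the numbers gave 53 and 30. The share of counts in members moved by less than its spread in the alternatives run. Values of uncalled members that changed sign were, with library totals, Gm5559 0.092, Gm11478 0.34, H3f3c 0.11, Gm7964 0.032, Gm12254 0.20 and Gm15361 0.12. With 1 library left out the ranges were −0.17 to 0.35 for Gm12328 (lowest without wild type 2), −0.88 to 0.0175 for Tpt1-ps3 and −0.47 to 0.0072 for Gm12254 (both highest without wild type 1), −0.45 to 0.31 for Gm11478 (positive without wild type 1 and without mutant 1, 0.13) and −0.17 to 0.93 for Gm8330 (lowest without mutant 1). The cause was not tested. A group left with 1 library takes its spread from the other group. With 500 to 1000 counts over 4 libraries the interval of a member's log2 fold change is wide: for Gm12254 it ran from −0.83 to 0.40.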
